A study of Rattus norvegicus with 6 samples.

Results

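Rat astrocytes grown as a tissue-engineered rostral migratory stream held a larger share of counts from 7 genes of the mitochondrial genome than astrocytes of the same run grown flat. These are respiratory chain genes, Mt-nd1, Mt-nd2 and Mt-nd4l of complex I, Mt-co2 and Mt-co3 of complex IV, and Mt-atp6 and Mt-atp8 of complex V. They are the rows of the count table whose Ensembl identifier is paired with a name that starts with Mt- in the supplementary list of differential expression, which could be read down to its 1517th entry in order of p-value. The table lists 23940 genes in all. The members were thus chosen by the p-value of the culture comparison in these same libraries, so the difference between conditions is described here for the 7 genes and is not a test of them. Other genes of the mitochondrial genome have no paired name here and were not analysed by name, so neither their direction nor the share of the whole mitochondrial genome is known.

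RNA was sequenced from 6 libraries of cortical astrocytes from newborn Sprague-Dawley rats, all at passage 4 and 4 days in vitro. In 3 libraries, labelled TE-RMS, the cells had been pipetted into agarose microchannels coated with collagen, where they draw together into aligned bundles (the tissue-engineered rostral migratory stream). In the other 3, called planar here, they had been plated on a flat layer of collagen in the same medium. Each of 3 runs, named July, September and October after their labels, gave 1 library of each kind, so a comparison within a run sets 1 TE-RMS library against 1 planar library. The pups were of either sex, and each run started from other animals. Bundles of a run were selected for tight bundling, kept frozen in RNAlater and pooled, whereas the planar wells were checked by phase microscopy and extracted fresh. The bundles were made on 3 sequential days, with a sister flask for each day, whereas planar wells were plated on the last day only. Culture shape, selection, storage, fabrication day, flask and pooling therefore cannot be told apart. In the order July, September, October, which is kept for all values below, the planar libraries summed to 70682593, 70478784 and 56483332 counts, and those of TE-RMS to 54601354, 77277336 and 64537115. Genes with a count numbered 15569, 16047 and 15473 in planar and 14938, 15262 and 13755 in TE-RMS libraries, so each TE-RMS library had fewer than its planar partner and the October TE-RMS library had the fewest.

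The mitochondrial genome is a small circle of DNA present in many copies per cell. Its genes are read as long RNAs that are cut apart, mostly at the transfer RNAs between them, into short messages with poly(A) tails. The proteins sit in the inner membrane beside many subunits encoded in the nucleus. Complex I takes electrons from NADH, complex IV passes them to oxygen, and complex V, the ATP synthase, lets protons flow back to make ATP. In the brain, astrocytes are known for a high glycolytic rate, but they also hold respiring mitochondria along their processes.

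All 7 genes lie on the forward strand of chromosome MT of mRatBN7.2, in the stretch from 2740 to 10166, and each is annotated as protein coding. In map order they are Mt-nd1 (ENSRNOG00000030644, MT:2740-3694), Mt-nd2 (ENSRNOG00000031033, MT:3904-4942), Mt-co2 (ENSRNOG00000030371, MT:7006-7689), Mt-atp8 (ENSRNOG00000033299, MT:7758-7961), Mt-atp6 (ENSRNOG00000031979, MT:7919-8599), Mt-co3 (ENSRNOG00000030700, MT:8599-9382) and Mt-nd4l (ENSRNOG00000031053, MT:9870-10166). Mt-atp8 and Mt-atp6 overlap by 43 bases and are known to share 1 message, and Mt-atp6 meets Mt-co3 with an overlap of 1 base. Their annotated lengths ran from 204 bases for Mt-atp8 to 1039 for Mt-nd2. Reads from the overlap, and reads that also match another annotated transcript, depend on how Salmon divided them. The counts of neighbours are therefore not fully separate. Salmon counted against annotated transcripts, so reads from other copies of mitochondrial DNA in the nuclear genome cannot be told apart here. Every member was well counted, with between 1670 and 230398 counts in each library.

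Summed over the 7 genes, 224347 of the July planar counts came from these genes, a share of 0.317% (95% exact binomial interval 0.316 to 0.319). The September planar library held 0.388% and the October planar library 0.466%. In TE-RMS the shares were 0.564% in July, 0.643% in September and 0.984% in October. The lowest TE-RMS share thus stood above the highest planar share, and within each condition July was lowest and October highest. The October TE-RMS library, with the highest share, is also the one with the fewest genes detected, and the part of this in its share was not tested. The TE-RMS share was 1.78 times the planar share in July, 1.66 times in September and 2.11 times in October. The means were 0.390% ± 0.0741 (SD, n = 3) in planar and 0.730% ± 0.223 (SD, n = 3) in TE-RMS astrocytes. The binomial interval given for the July planar library covers counting error only, which was far smaller than the distance between libraries of one condition. A share of counted RNA does not tell more RNA per mitochondrion from more mitochondria or mitochondrial genomes per cell.

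Values per gene are given next as CPM, counts relative to the size of the library after TMM scaling, which sets the libraries so that most genes do not differ. Complex I is represented by 3 subunits of its membrane arm. Mt-nd1 had 329.9, 200.3 and 309 CPM in planar astrocytes and 425, 426 and 695 CPM in TE-RMS. The conditions did not overlap, but the July planar library was the highest of the planar ones, so the July pair lay close together at a log2 ratio of 0.36, against 1.09 in September and 1.17 in October. Mt-nd2 had 231, 239.9 and 308 CPM in planar and 349, 401 and 619.5 CPM in TE-RMS libraries. Here October stood above the other runs in both conditions, with log2 ratios of 0.60, 0.74 and 1.01 in run order. Mt-nd4l, the least abundant member and known to share its message with another complex I gene, had 24.7, 35.6 and 39.7 CPM in planar and 51.004, 55.1 and 98.6 CPM in TE-RMS libraries. Its ratio was smallest in September, at 0.63, and larger in July (1.05) and October (1.31).

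Complex IV, cytochrome c oxidase, is represented by 2 of its catalytic core subunits. Mt-co2, which accepts electrons from cytochrome c, had 755, 802 and 921 CPM in planar astrocytes and 1113, 1458 and 2028 CPM in TE-RMS. Both series ran in the order July, September, October, and the log2 ratios within runs did so too, at 0.56, 0.86 and 1.14. Mt-co3, a core subunit without a redox centre, was the most abundant member, with 970.4, 1260.4 and 1446 CPM in planar and 1735, 2178 and 3629 CPM in TE-RMS libraries. Its October TE-RMS value was the highest of any member in any library, and its log2 ratios were 0.84, 0.79 and 1.33.

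Complex V is represented by its proton channel subunit Mt-atp6 and by the small membrane subunit Mt-atp8. Mt-atp6 had 889.7, 1091 and 1154 CPM in planar and 1512, 2049 and 2559 CPM in TE-RMS libraries, with log2 ratios of 0.76, 0.91 and 1.15. Mt-atp8 had 116, 151 and 172 CPM in planar and 242, 341 and 371 CPM in TE-RMS libraries. It was the member whose ratio varied least between runs, at 1.07, 1.18 and 1.11 (SD 0.055), whereas that of Mt-nd1 varied most (SD 0.44).

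**Figure D1:**
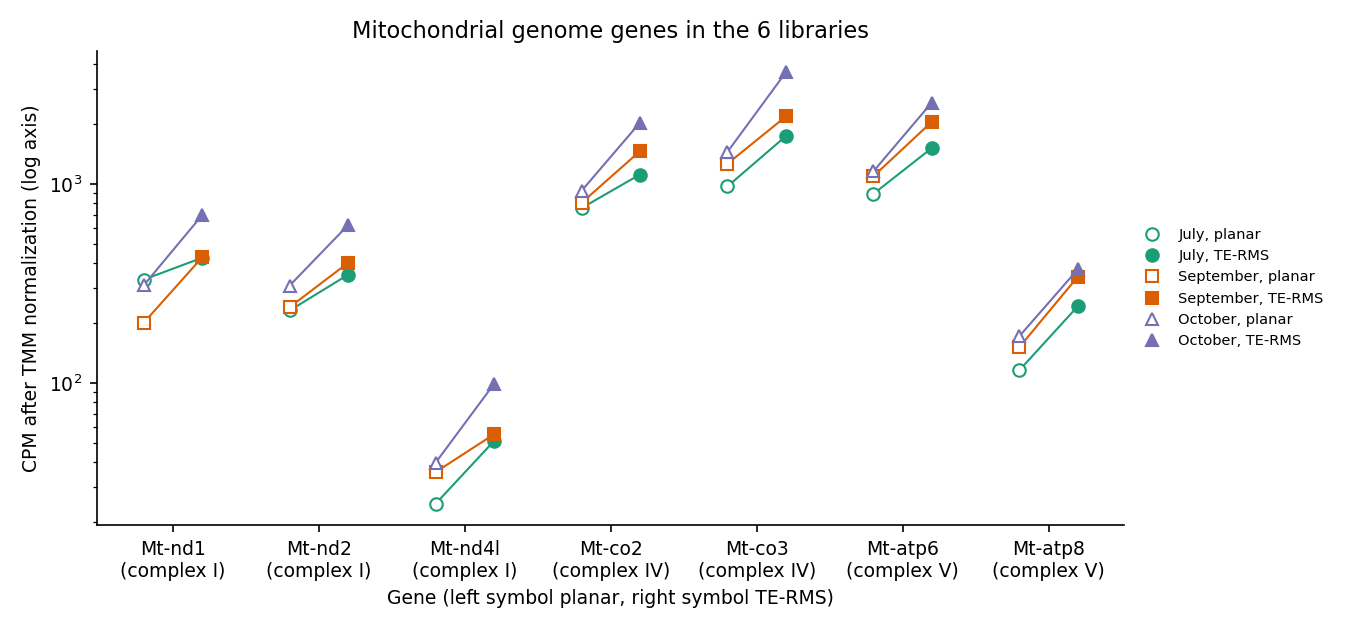
CPM after TMM normalization (log axis) of the 7 genes, with open symbols for planar and filled symbols for TE-RMS libraries and a line joining the 2 libraries of a run. Every TE-RMS symbol lies above all planar symbols of its gene, and October is the highest of the TE-RMS libraries for each gene.

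For all 7 genes the lowest TE-RMS library lay above the highest planar library, an arrangement that 13.2% of the 16331 tested genes showed. A higher TE-RMS value within each run, which 22.5% of genes had, was also common to all 7. By edgeR (quasi-likelihood, blocked by run), all 7 were called higher in TE-RMS at an adjusted p under 0.05, against 9.36% of tested genes, with another 9.28% called lower. The way the members were chosen bears on all these counts, so nothing is read from them. Without the block, when 4.34% of tested genes were called higher, Mt-atp8 and Mt-atp6 stayed under the threshold, and edgeR's adjusted p of the other 5 lay between 0.0529 (Mt-nd4l) and 0.0772 (Mt-nd2). With the block kept, that of Mt-nd1 was 0.0506 without the September run and 0.0595 without the October run. The member nearest to falling outside, with the largest p of the 7, was Mt-nd1, and no gene of the mitochondrial genome beyond the end of the list could be named for comparison.

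The fitted log2 fold changes (TE-RMS over planar) were close to each other, from 0.78 for Mt-nd2 (standard error 0.17) to 1.12 for Mt-atp8 (standard error 0.16), with a median of 0.94. The median over all tested genes was -0.12. On the linear scale these are folds of 1.72 to 2.17 times, which put the members between positions 539 and 1076 by fold among the 1528 genes called higher. The median log2 fold change of those 1528 genes was 0.95, so the 7 were of middling size among them. Between these members lay Mt-co2 at 0.85 (standard error 0.18), Mt-nd1 at 0.88 (0.19), Mt-atp6 at 0.94 (0.17), Mt-co3 at 0.98 (0.18) and Mt-nd4l at 1.00 (0.19). The distance between the smallest and the largest fold was about 2 standard errors of a single gene, and since all rest on the same contrast it was not tested.

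**Figure D2:**
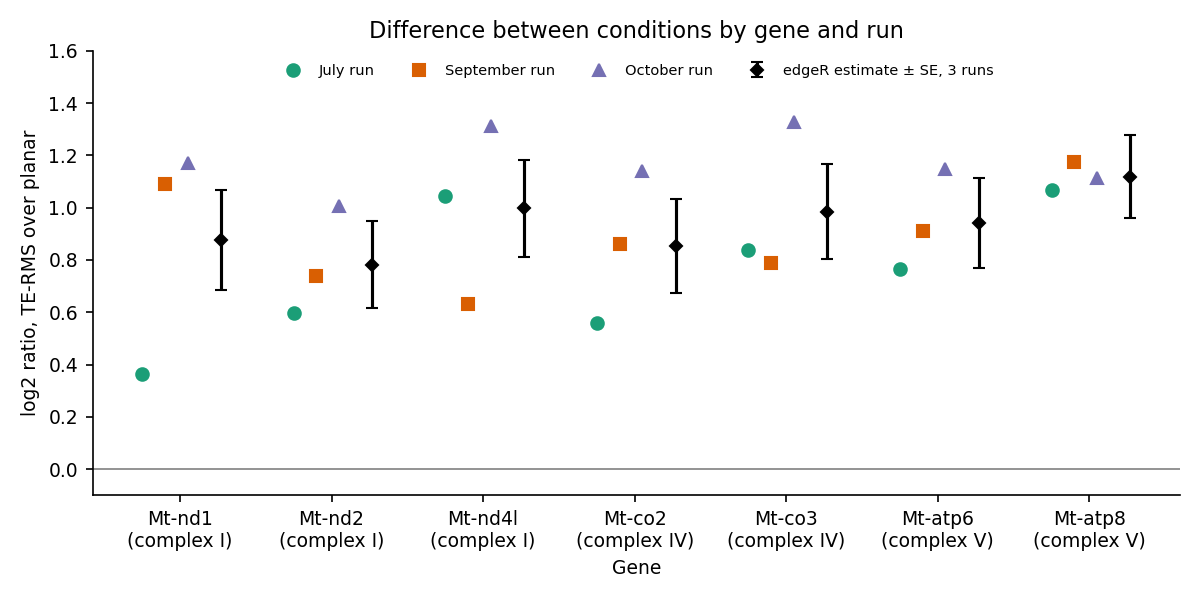
Log2 ratio of TE-RMS over planar CPM for each gene in each run (coloured symbols) and the edgeR estimate over the 3 runs with its standard error (black). All 21 ratios lie above 0, from 0.36 to 1.33; the October ratio is the highest of its gene except for Mt-atp8.

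Taken by complex, the median log2 ratio of the 3 complex I genes was 0.60 in July, 0.74 in September and 1.17 in October. For the 2 complex IV genes it was 0.70, 0.83 and 1.23, and for the 2 complex V genes 0.92, 1.04 and 1.13. By these medians complex V had the largest ratio in July and September and the smallest in October. The mean over runs was 0.84 ± 0.30 (SD, n = 3) for complex I, 0.92 ± 0.28 for complex IV and 1.03 ± 0.11 for complex V. These means differed by less than the spread between runs of complexes I and IV, and the order of the complexes changed between runs. With the CPM of a complex summed before the ratio was taken, complexes IV and V came closer, at 0.93 and 0.96, and complex I stood at 0.83. In October the summed ratios were 1.11 for complex I, 1.26 for complex IV and 1.14 for complex V, so complex I was then the smallest.

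By median over the 7 genes, the log2 ratio was 0.76 in July, 0.86 in September and 1.15 in October. In July it ran from 0.36 (Mt-nd1) to 1.07 (Mt-atp8), in September from 0.63 (Mt-nd4l) to 1.18 (Mt-atp8), and in October from 1.01 (Mt-nd2) to 1.33 (Mt-co3). The lowest October ratio was higher than the median of either other run. With 1 pair of libraries a run, a difference in the size of the change between runs could not be tested.

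Differences between runs are a contrast that the choice of genes did not use directly, and they were tested with the condition in the model. Both tests share the residual variance of a gene, and a choice by small p-values favours genes where it is small. The p-values of the run test are therefore not wholly free of that choice. The fitted October minus July difference was above 0 for each of the 7 genes. The difference was largest for Mt-co3 and Mt-nd4l, both at 0.83 on the log2 scale (standard errors 0.22 and 0.23), and smallest for Mt-nd1, at 0.29 (standard error 0.23). The joint test of the run terms in edgeR called 0 of the 7 at the same threshold. Their adjusted p-values ran from 0.135 (Mt-co3) to 0.345 (Mt-co2), while 525 of the tested genes (3.21%) were called. In the tests of single pairs of runs 0 of the 7 were called as well, the lowest adjusted p being 0.0910 for Mt-co3 between October and July. Of all tested genes 2.06% were called between October and July, 1.27% between October and September and 1.81% between September and July. Unadjusted, 5 of the 7 had a p under 0.05, against 15.6% of tested genes. DESeq2 with the same terms called 1 of the 7, Mt-co3 (adjusted p = 0.00752), where it called 9.02% of the 13798 genes to which it gave an adjusted p. With limma-voom 0 of the 7 and 2.98% of tested genes were called. In edgeR with library totals in place of TMM, Mt-co3 alone of the 7 was called (adjusted p = 0.0261), against 3.86% of tested genes.

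The September planar library had less Mt-nd1 than either other planar library, while Mt-nd2 did not show this. Mt-nd1 CPM was 1.43 times that of Mt-nd2 in the July planar library, 0.835 times in September and 1.00 times in October. In the TE-RMS libraries this ratio was 1.22, 1.06 and 1.12. With the July run left out, the difference of Mt-nd1 between September and October reached an adjusted p of 0.0125 in edgeR's test, on 4 libraries, whereas with all 3 runs the same pair of runs gave 0.229. In the fit without July it was the 1 member called, against 4.72% of tested genes. After the mean of each condition was subtracted from log2 CPM, Mt-nd1 was also the member least like the rest across the 6 libraries, with a correlation of 0.63 to the mean of the 7 (which holds Mt-nd1 itself). For the other members this correlation was 0.85 (Mt-atp8) to 0.99 (Mt-nd2). The libraries share their depth and scaling across genes, so these values are descriptions only.

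The make-up of the summed counts was compared next. Mt-co3 supplied 32.0% ± 2.33 (SD, n = 3) of the summed counts in planar and 33.3% ± 2.63 in TE-RMS libraries, and Mt-atp6 27.4% ± 1.26 and 27.7% ± 2.04. Mt-co2 supplied 21.7% ± 0.905 and 20.6% ± 0.429. For Mt-nd1 it was 7.45% ± 2.34 and 6.98% ± 0.827, and for Mt-nd2 6.80% ± 0.395 and 6.14% ± 0.319. Mt-atp8 and Mt-nd4l, the shortest members, supplied 3.81% and 0.866% in planar and 4.37% and 0.908% in TE-RMS libraries. Only Mt-nd2 and Mt-co2 moved the same way in each run, both to a smaller share in TE-RMS, with TE-RMS minus planar from -0.89 to -0.53 and from -2.26 to -0.11 percentage points. For the other 5 the direction differed between runs. Mt-co3 had the widest range in percentage points, from 29.3% in the July planar library to 36.3% in the October TE-RMS library, and Mt-nd1 ran from 5.30% in the September planar library to 9.95% in the July planar library.

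**Figure D3:**
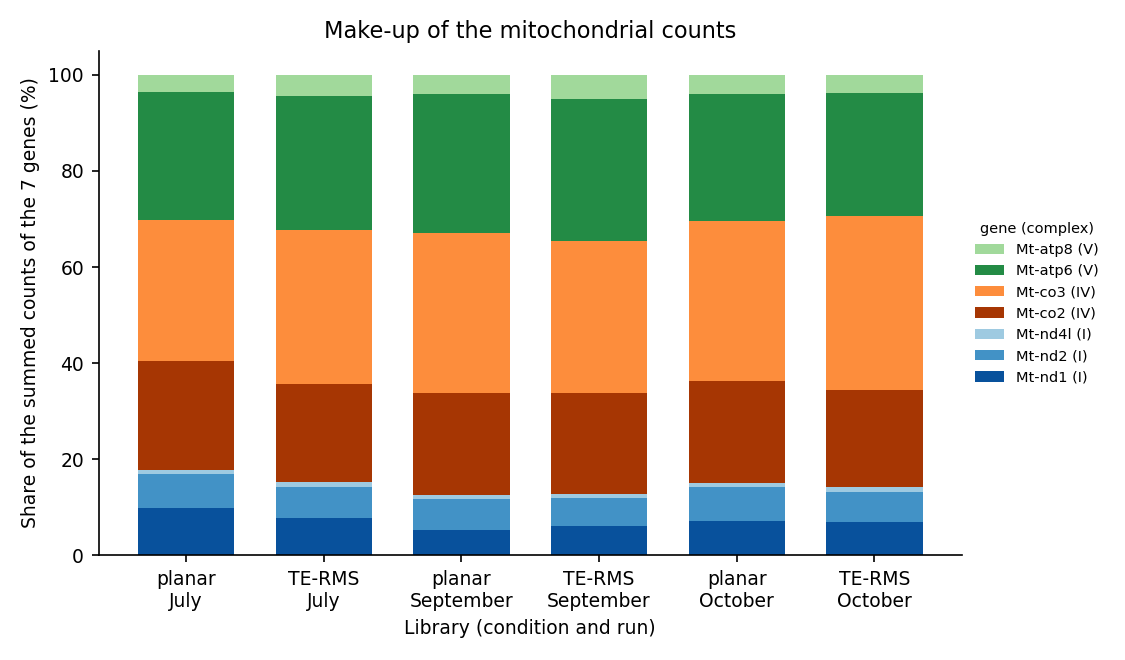
Share of the summed counts of the 7 genes held by each gene (stacked bars, %), in the planar and TE-RMS library of each run. The complex IV genes hold 52.0% to 56.6% and the complex I genes 12.6% to 17.7% in every library, and the share of Mt-nd2 and of Mt-co2 is lower in TE-RMS in each run.

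Levels of different genes were compared per length, since a longer message yields more reads. Per kilobase of annotated length, Mt-co3 stood at 1563 ± 306 CPM (SD, n = 3) in planar and 3207 ± 1264 in TE-RMS libraries, and Mt-atp6 at 1534 ± 203 and 2995 ± 769. Those 2 changed places from library to library, each being ahead in 3 of 6. Mt-co2 followed in every library, at 1207 ± 125 and 2241 ± 675 CPM per kilobase, and then Mt-atp8, at 716 ± 139 and 1560.1 ± 331. The complex I genes came last in every library. Mt-nd1 stood at 293 ± 72.8 in planar and 539.6 ± 163 CPM per kilobase in TE-RMS libraries, Mt-nd2 at 249.9 ± 40.7 and 439 ± 138, and Mt-nd4l at 112 ± 26.1 and 229.8 ± 88.9. Mt-nd1 was ahead of Mt-nd2 in 5 of the 6 libraries, and in both conditions their means lay closer together than the SD of Mt-nd1.

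The place of Mt-atp8 depends on how length is counted. Its annotated 204 bases offer only 105 places where a read of 100 bases can start and lie wholly within them, against 582 for Mt-atp6. Per 1000 such positions Mt-atp8 stood at 1391 ± 269 CPM in planar and 3031 ± 643 in TE-RMS libraries, and Mt-atp6 at 1795 ± 237.5 and 3505 ± 899.8. Mt-atp6 was then 1.08 to 1.39 times Mt-atp8, where per kilobase it had been 1.80 to 2.30 times. Mt-atp8 also passed Mt-co2 in 5 of the 6 libraries on this scale. The complex I genes remained the lowest on both scales.

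**Figure D4:**
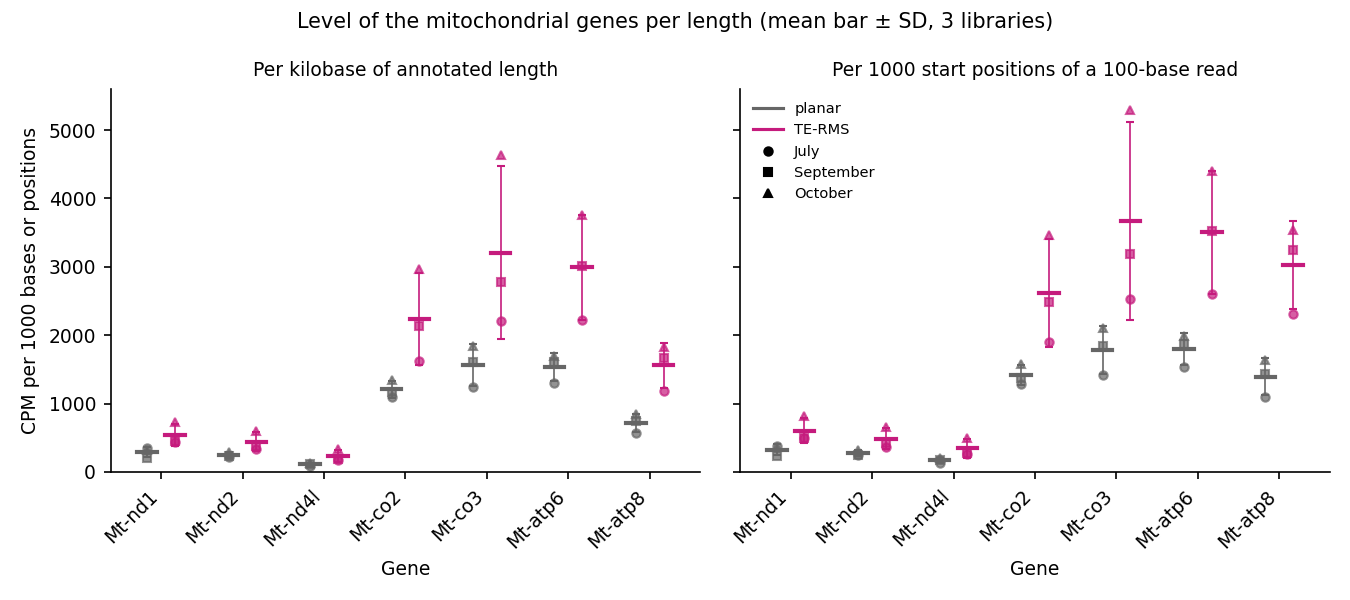
Level of each gene per kilobase of annotated length (left) and per 1000 start positions of a 100-base read (right), in CPM, with each library as a symbol and the mean ± SD of 3 libraries. The complex I genes are lowest on both scales, and Mt-atp8 moves up beside Mt-atp6 and Mt-co2 only on the right.

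Most proteins that work with these 7 are encoded in the nucleus, and few of their genes have a paired name. Of 96 symbols in lists of nuclear subunits and assembly factors of complexes I to V, 2 could be paired. Atp5f1a, the alpha subunit of the catalytic head of complex V, had 291, 283 and 259 CPM in planar and 508, 478 and 480.3 CPM in TE-RMS (log2 fold change 0.82, standard error 0.16). Cox15, an enzyme that makes the heme A of complex IV, had 17.7, 19.6 and 13.8 CPM in planar and 35.5, 43.7 and 30.1 CPM in TE-RMS libraries (log2 fold change 1.09). These names come from the same p-value list as the 7 genes, so a paired gene was bound to differ and the size of its change is likely overstated by that choice. Its values are a description only. Over all 1517 paired genes, 49.5% had a log2 fold change above 0.

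Over 12 lists of nuclear genes for mitochondrial functions, 21 of 230 symbols (9.13%) were paired, about the share of all tested genes that were (9.29%). The pairing was uneven, with 2 of the 96 symbols of the respiratory complexes and 7 of the 17 of the TCA cycle list. Names follow the p-value, so an unpaired symbol was not among the smallest p-values under that name. Of the 21 paired genes, 20 were higher in TE-RMS and 1 was lower, with a median log2 fold change of 1.05. Over all 1517 paired genes, 751 were called higher and 762 lower. In mitochondrial RNA metabolism 3 of 26 symbols were paired and all were higher. Mtpap, which adds poly(A) tails to mitochondrial messages, had a log2 fold change of 1.05. That of Pnpt1, a polynucleotide phosphorylase of mitochondrial RNA turnover, was 1.43. For Prorp, a protein subunit of the mitochondrial RNase P that frees transfer RNAs, it was 1.30. Mitochondrial translation had 1 paired gene of 25, the isoleucyl-tRNA synthetase Iars2 (1.15). No symbol was paired in the lists of mitochondrial DNA upkeep (11 symbols) or biogenesis regulators (11 symbols), so neither can be described here.

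Genes of mitochondrial fusion, fission and inner membrane shape had 5 paired members of 19, all higher in TE-RMS. The largest change was that of Yme1l1, an inner membrane protease that cleaves Opa1, at 1.80, with 110.3, 109 and 81.0 CPM in planar and 336, 419 and 289 CPM in TE-RMS libraries. The fusion GTPases Mfn1 and Opa1 had log2 fold changes of 1.34 and 1.16, the fission regulator Mtfr1 1.19 and the crista organizer Immt 0.96. Of 25 symbols for import, chaperones and proteases, 3 were paired, and they went both ways. Hspa9, the matrix chaperone of protein import, and Mipep, a presequence peptidase, were higher (0.72 and 1.05), and the matrix protease Lonp1 was lower in each run, at 14.4, 12.04 and 22.8 CPM in planar and 4.78, 5.31 and 8.30 CPM in TE-RMS libraries.

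The list of the TCA cycle and pyruvate dehydrogenase had 7 of 17 symbols paired, all of them higher in TE-RMS. Their log2 fold changes were 0.70 for Pdha1 and 0.94 for Pdhb, subunits of the enzyme that feeds pyruvate into the cycle, 1.06 for citrate synthase (Cs) and 0.79 for the shared dehydrogenase Dld. The succinyl-CoA ligase genes Sucla2, Suclg1 and Suclg2 had 0.95, 0.87 and 0.92. Glycolysis and lactate transport, with 6 of 25 symbols paired, had a mixed picture, 2 higher and 4 lower. The glucose carrier Slc2a1 (0.85) and Pgam1 (0.78) were higher, while Hk1, the hexokinase that binds to mitochondria, was lower at -1.15, Pfkl at -1.54, Eno3 at -2.75 and the lactate exporter Slc16a3 at -1.83. The median over those 6 was -1.35.

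**Figure D5:**
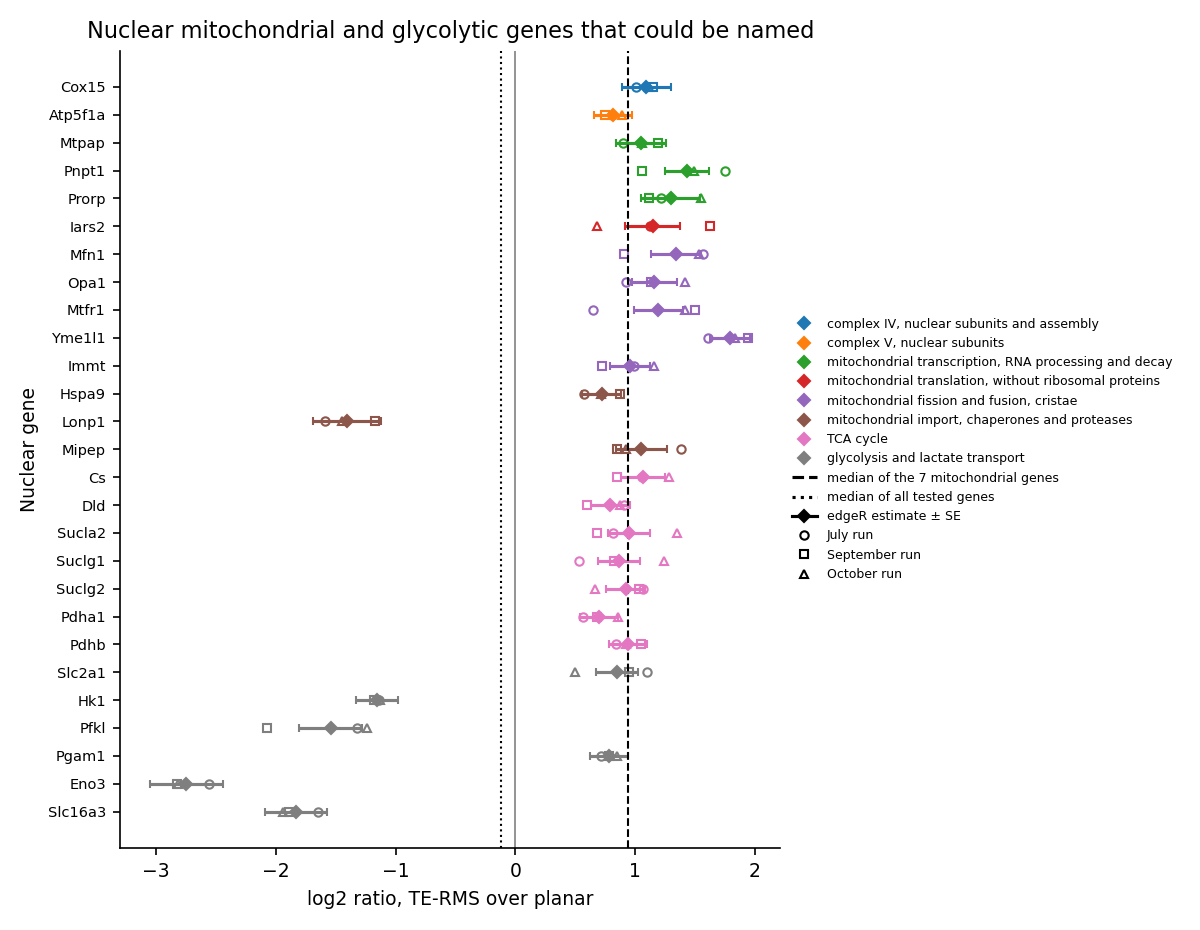
Log2 ratio of TE-RMS over planar for the nuclear genes of mitochondrial and glycolytic lists that could be named, by run (open symbols) and as the edgeR estimate ± standard error (diamonds). Of the 21 mitochondrial genes only Lonp1 lies below 0, and 4 of the 6 glycolytic genes do; all were named from a list of small p-values.

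By Pearson's r of log2 CPM over the 6 libraries, the named genes most like the mean of the 7 were Scpep1 (0.993), Cbr1l2 (0.989), Slc35a5 (0.985), Prorp (0.984) and Slc39a6 (0.977). Each combines a higher TE-RMS level with October as the highest run of each condition. Scpep1 had 125, 148 and 161 CPM in planar and 211, 263 and 336 CPM in TE-RMS libraries, in run order. In all, 84 of 16331 tested genes, members included, had an r over 0.95, and 28 of those have a name. With the mean of each condition subtracted first, the named genes most alike were Spsb2 (0.991), Adcy2 (0.990), Slc35a5 (0.984), Tceal3 (0.982) and Vps41 (0.981), of which Spsb2 and Tceal3 were lower in TE-RMS. With 6 points and a choice from so many genes such values are easily reached, and they are given without a test.

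Other cell types were looked at through the markers that could be named. Every name comes from the same p-value list, so each named marker was bound to differ, and markers without a paired name are not seen. The sums below cover the paired markers only. Of 14 astrocyte markers 6 were paired, and they summed to 2640.4, 2278 and 3242 CPM in planar and 8161, 5348 and 9621 CPM in TE-RMS astrocytes. Apoe was the most abundant, and 4 were higher (Slc1a3, Slc1a2, Gja1 and Apoe) and 2 lower (Fgfr3 and Id4) in TE-RMS. Markers of fibroblasts and mural cells (4 of 8 paired: Col1a1, Col1a2, Col3a1 and Acta2) were lower in TE-RMS, with summed values of 849.8, 439 and 701 CPM in planar and 181, 146 and 229 CPM in TE-RMS libraries. Col1a2 was the most abundant of these. The microglial marker Cd68, 1 of 11, had 1.30, 15.6 and 0.778 CPM in planar and 8.69, 85.4 and 3.75 CPM in TE-RMS libraries, with September highest in both. Tmem119, a microglial gene outside that list, went the other way and was lower in TE-RMS (log2 fold change -1.94, standard error 0.27). Cd68 alone therefore gives no direction for microglial RNA. Of 6 neuronal markers 2 were paired, Map2 and Snap25, with sums of 12.7, 7.63 and 5.94 CPM in planar and 34.9, 91.3 and 18.1 CPM in TE-RMS libraries. The high September TE-RMS sum came from Snap25 (60.8 CPM), while Map2 was highest in July in both conditions. None of 5 endothelial markers was paired. None of the list markers named here was at 0 in every library of a condition. In bulk RNA, more cells of a type and more RNA per cell cannot be told apart, and the part of these markers in the mitochondrial difference was not tested.

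The genes of the Y chromosome with a paired name, Ddx3, Uty and Eif2s3y, were higher in TE-RMS in each run. Their names come from the same p-value list, so a difference in some direction was bound to appear, and other Y chromosome genes are not seen. Eif2s3y had 63.1, 47.5 and 165.5 CPM in planar and 116, 105 and 249.6 CPM in TE-RMS libraries, highest in October in both conditions. The log2 fold changes of the 3 were 2.36, 1.24 and 0.87. They were looked at after their values were known, and the part of a different mix of male and female cells in the mitochondrial values was not tested.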

How the data were processed

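Total RNA of 6 libraries (3 TE-RMS, 3 planar) was sequenced with a non-stranded mRNA kit as single-end reads of 100 bases. After fastp trimming, the authors quantified transcripts of Ensembl v111 (mRatBN7.2) by Salmon and used tximeta to reach gene level. What they deposited is an estimated count for each gene, already rounded to a whole number. Salmon's division of shared reads is therefore part of every value. The versions of fastp and Salmon are not given in the sources used here.

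Groups and runs were taken from the labels. A gene was tested if its counts over all libraries reached 10 (16331 of 23940). Scaling was by TMM and the test was the quasi-likelihood one of edgeR 4.0.16 (R 4.3.3), blocked by run, with Benjamini-Hochberg adjustment over all tested genes. Standard errors are the log2 fold change over the square root of F. Ratios within runs used log2 CPM with a prior count of 2. Libraries of one run are paired in the methods, and their deviations from the condition mean correlated at 0.18 to 0.27 across genes, against -0.16 to -0.07 between runs. Subtracting the condition mean ties these values together, so the negative ones follow from the positive ones. DESeq2 1.42.0, limma 3.58.1 and other scalings, filters and subsets were alternatives. The members and lists were chosen with earlier results of these data known. Named genes are the 7 members, paired list members and the 5 most alike by r in each of 2 rankings. Names come from the part of the supplementary list that could be read, whose p-values set which genes are named and whose fold changes, p-values and group means enter no result. The Y chromosome genes and Tmem119 were added later. No library read depth beyond the counts was used. The result of 1 marker list is not reported here.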

Additional observations from a re-analysis of the deposited data

How the results depend on the processing

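All 7 genes kept a positive log2 fold change under each of the 11 alternatives, from 0.70 to 1.18. Without the replicate block the values ran from 0.81 to 1.12, but the adjusted p of 5 of the 7 rose above 0.05, as did that of Mt-nd1 when September or October was left out. The count of genes called between conditions was 3044 with the block and 1441 without it, and from 2081 to 3210.0 with 1 run left out. The count of genes differing between runs was 525, and it was 224 when at least 10 counts in at least 3 libraries were required and 1245 with DESeq2. In the run test Mt-co3 had an adjusted p of 0.0261 with library totals alone and 0.00752 with DESeq2, against 0.135 as reported. That of Mt-nd1 ran from 0.0125 to 0.861 with 1 run left out, the lowest value being without July. The causes of these changes were not tested. The mean level of Mt-atp8 over the 6 libraries was 1138 CPM per kilobase, 2211 per 1000 start positions and 2108 over the joint span of 842 bases with Mt-atp6. The complexes, the composition and the summed share changed by less than the spread between runs. Of the 5 genes most like the 7, all 5 and 4 were kept with Spearman's rho in the rankings without and with the condition means subtracted, with 20 and 7 named genes tied at the fifth rho. Depth limits none of the 7 genes, whose lowest count was 1670, but 3 runs limit every comparison.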
